A study of Mus musculus with 96 samples.

Results

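The mouse circadian clock was examined in the cerebellum through 10 of its genes, Ciart, Dbp, Per1, Per2, Per3, Nr1d1, Nr1d2, Arntl, Tef and Bhlhe41, of the 39179 genes in the deposited tables. The genes were chosen by name as parts or direct outputs of the clock, and all 10 passed the filter on low counts in every fit. The series profiled messenger RNA of the cerebellum in 96 libraries from C57BL/6 mice that were heterozygous for a knock-in allele of Htt, the gene whose CAG repeat expansion causes Huntington disease, or wild type. Each age, 6 or 10 months, held 48 libraries in 6 groups of 8, with 4 females and 4 males in each group. The groups were heterozygotes whose knock-in allele carried 20, 50, 92 or 140 CAG (Q20, Q50, Q92 and Q140), wild types housed with Q20 mice and wild types housed with Q50 mice. Heterozygotes shared cages with mice of their own allele, and they also carried a normal Htt allele. The labels do not say whether each library came from a different mouse, so p-values measure the spread between these libraries, which may be technical. The time of day at which tissue was taken is not given in the sources used here, and values across libraries cannot be placed on a daily cycle.

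The mammalian clock is a feedback loop of transcription. ARNTL (also called BMAL1) pairs with CLOCK and activates genes that carry E-box elements, among them the Per genes, Nr1d1, Nr1d2, Dbp, Tef, Ciart and Bhlhe41. The period proteins, CIART (also called CHRONO) and BHLHE41 (also called DEC2) act back as repressors of that pair, and the nuclear receptors NR1D1 and NR1D2 (REV-ERB alpha and beta) repress Arntl itself. DBP and TEF are bZIP transcription factors that carry the rhythm to output genes through D-box elements. In mouse tissues, the brain outside the hypothalamic pacemaker included, Arntl is known to peak at a different time of day from the genes that ARNTL activates.

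The promoters of 4 members are shown as examples with at least 1 copy of an element in the 250 bases before the RefSeq transcription start: Ciart with the most copies, Bhlhe41 as another repressor, Nr1d1 with the E-prime box and Per3 with the D-box core. Of the 10 members, 9 had a window in the RefSeq table (build GRCm38.p6), with 12 windows in all. Both strands were searched for the E-box CACGTG, the related E-prime box CACGTT, the D-box core TTATGTA or TTACGTA, and the element bound by nuclear receptors of the ROR and REV-ERB families, TAGGTCA. Capitals mark the matches, and each sequence runs 5′ to 3′ on the gene's own strand, which was the minus strand for all 4.
Ciart promoter, chr3:95882229-95882478: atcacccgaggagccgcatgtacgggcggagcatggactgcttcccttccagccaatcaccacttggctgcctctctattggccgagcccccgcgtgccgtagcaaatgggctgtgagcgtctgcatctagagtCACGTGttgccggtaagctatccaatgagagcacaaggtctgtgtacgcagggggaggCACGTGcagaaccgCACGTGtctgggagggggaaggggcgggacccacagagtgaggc
Bhlhe41 promoter, chr6:145865421-145865670: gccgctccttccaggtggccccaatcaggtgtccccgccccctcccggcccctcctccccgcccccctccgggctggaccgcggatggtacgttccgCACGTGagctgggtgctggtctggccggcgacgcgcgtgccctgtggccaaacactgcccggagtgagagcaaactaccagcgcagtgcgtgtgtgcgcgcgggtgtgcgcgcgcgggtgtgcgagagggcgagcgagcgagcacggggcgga
Nr1d1 promoter, chr11:98775378-98775627: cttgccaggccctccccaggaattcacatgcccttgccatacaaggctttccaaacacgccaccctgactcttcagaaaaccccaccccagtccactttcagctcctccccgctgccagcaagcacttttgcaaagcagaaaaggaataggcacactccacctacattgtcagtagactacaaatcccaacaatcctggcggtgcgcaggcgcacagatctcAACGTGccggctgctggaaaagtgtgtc
Per3 promoter, chr4:151044666-151044915: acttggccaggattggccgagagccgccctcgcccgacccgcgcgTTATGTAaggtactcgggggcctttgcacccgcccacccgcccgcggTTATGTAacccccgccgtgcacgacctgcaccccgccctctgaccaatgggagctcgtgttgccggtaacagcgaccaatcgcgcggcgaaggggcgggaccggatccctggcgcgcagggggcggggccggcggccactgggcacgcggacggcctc

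Ciart held 3 E-boxes and Bhlhe41 held 1. Nr1d1 held 1 E-prime box, which reads AACGTG on the printed strand, and Per3 held 2 copies of the D-box core. Among the windows not printed, Per1 held 1 E-box in the first of its windows and Tef held 1 E-box in each of its windows, and the windows of Dbp, Nr1d2 and Arntl held none of these letters. Of 32851 promoter windows of the same length, 6.02% held the E-box, 3.85% the E-prime box, 2.75% the D-box core and 2.23% the ROR element. A match describes the letters in this window and is not a measured binding site.

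In the annotation used here (GENCODE M21 on GRCm38), Ciart (ENSMUSG00000038550) spans chr3:95878503-95882251 on the minus strand, Dbp (ENSMUSG00000059824) chr7:45705088-45710203 on the plus strand and Arntl (ENSMUSG00000055116) chr7:113207465-113314126 on the plus strand. Library totals ran from 29957797 to 39477325 estimated counts, with a median of 34251076. Markers of the labelled tissue were abundant in every library, since the mean log2 CPM (CPM being counts scaled to a common library size) of 8 Purkinje cell markers lay between 8.55 and 9.77 and that of 7 granule neuron markers between 8.04 and 9.25. Total Htt, to which both alleles contribute, differed between Q140 and Q20 by a log2 fold change of -0.00 ± 0.12 (SE) at 6 months and -0.22 ± 0.07 at 10 months (adjusted p = 0.99 and 0.117), so its level does not check the allele labels. On the first principal component of all genes, 9 libraries at 6 months and 1 at 10 months (Q92 female 2) lay far from the rest of their age. The sign of the component was set at each age so that it rises with Dbp. Every adjusted p below, written q, is from edgeR's quasi-likelihood F-test with Benjamini-Hochberg adjustment over all genes tested, a gene was called at q under 0.05, and errors of log2 fold changes are SE.

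Per unit length, the output factor Tef was the most abundant member and the repressors Ciart, Per2 and Bhlhe41 the least. Over the 96 libraries, FPKM (fragments scaled to the length of the gene and the size of the library) was 116.7 ± 11.6 (SD) for Tef, 62.4 ± 5.75 for Nr1d2, 54.0 ± 5.83 for Nr1d1 and 36.7 ± 10.9 for Dbp. The levels of Per1, Per3 and Arntl came next, at 25.9 ± 7.47, 17.1 ± 2.33 and 15.4 ± 1.89 FPKM. Bhlhe41, Per2 and Ciart lay together at 11.8 ± 1.29, 11.6 ± 4.24 and 11.2 ± 2.89 FPKM. Tef exceeded Nr1d2 in all 96 libraries and Nr1d2 exceeded Nr1d1 in 92, whereas Per3 exceeded Arntl in 65, Bhlhe41 exceeded Per2 in 47 and Per2 exceeded Ciart in 57. The order of Bhlhe41, Per2 and Ciart was therefore not resolved. Exons of Nr1d1 share 263 bases with Thra on the opposite strand, those of Dbp share 539 with Sphk2 and those of Tef share 193 with Gm17597. Whether counting used strand is not given in the sources used here, so some reads of these members may belong to their neighbours. In bulk tissue, fewer cells that express a gene and less of its RNA per cell cannot be told apart.

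Female libraries held more RNA of most clock genes than male libraries at 6 months, and less Arntl. Of the 10 members, 8 were called between the sexes, 7 higher and 1 lower in females, in a comparison of 24 libraries with 24 that called 0.876% of all 17120 genes tested (0.491% higher and 0.386% lower). The largest fold changes belonged to Ciart and Dbp.

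Ciart, the repressor with 3 E-boxes in its promoter window, had a lowest, median and highest level of 12.2, 19.3 and 25.1 CPM in females and 9.79, 14 and 18.8 CPM in males. The log2 fold change was 0.48 ± 0.06, or 1.40-fold (q = 5.36e-07), and 23 of 24 female libraries lay above the male mean. Dbp, the output factor, had 54.7, 68.7 and 95.8 CPM in females and 35.6, 52.8 and 89.1 CPM in males. Its log2 fold change was 0.46 ± 0.06, or 1.38-fold (q = 5.84e-06), with 24 of 24 female libraries above the male mean. The ranges of both genes overlapped between the sexes, and the highest male value of Dbp, from Q20 male 4, stood above the next male at 72.4 CPM.

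Arntl, the activator, went the other way. Females had a lowest, median and highest level of 31.3, 40.5 and 55.4 CPM and males 38.3, 47.7 and 57.6 CPM. The log2 fold change was -0.21 ± 0.04 (q = 0.00419), and 21 of 24 female libraries lay below the male mean, with overlapping ranges.

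The other called members were higher in females by smaller amounts. The log2 fold change was 0.18 ± 0.03 for the repressor Bhlhe41 (q = 1.34e-05) and 0.14 ± 0.04 for Per3 (q = 0.0482). The receptors Nr1d1 and Nr1d2, which repress Arntl, were higher by 0.17 ± 0.03 (q = 0.000226) and 0.15 ± 0.03 (q = 0.0127), and the output factor Tef by 0.14 ± 0.03 (q = 0.0018). Between 20 and 23 of 24 female libraries lay above the male mean for these 5 genes. Nr1d1 ranged from 136.6 to 179.5 CPM in females and from 121.0 to 161.9 CPM in males, and Thra, which shares exon bases with it, had a log2 fold change of -0.05 (q = 0.418). Per1 and Per2, the period genes with the widest spread, had log2 fold changes of 0.10 ± 0.12 (q = 0.92) and 0.29 ± 0.14 (q = 0.511) and were not called.

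Per3 kept its call in 24 of 58 alternative fits, and the other 7 members kept theirs in all 58 apart from Nr1d2 in a single fit. That fit included the L number in the library names, whose meaning the labels do not give, and gave q = 0.0781 for Nr1d2 and 0.188 for Per3. With the L number in the fit the log2 fold change was 0.52 for Dbp, 0.50 for Ciart and -0.21 for Arntl, and without the 9 libraries far from the rest it was 0.47, 0.46 and -0.20. Choroid plexus markers averaged 1.17 log2 CPM in females and 2.03 in males, none of the 15 was called, and their part in the sex difference was not tested beyond a fit with their mean as a covariate, in which 7 members were called.

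**Figure D1:**
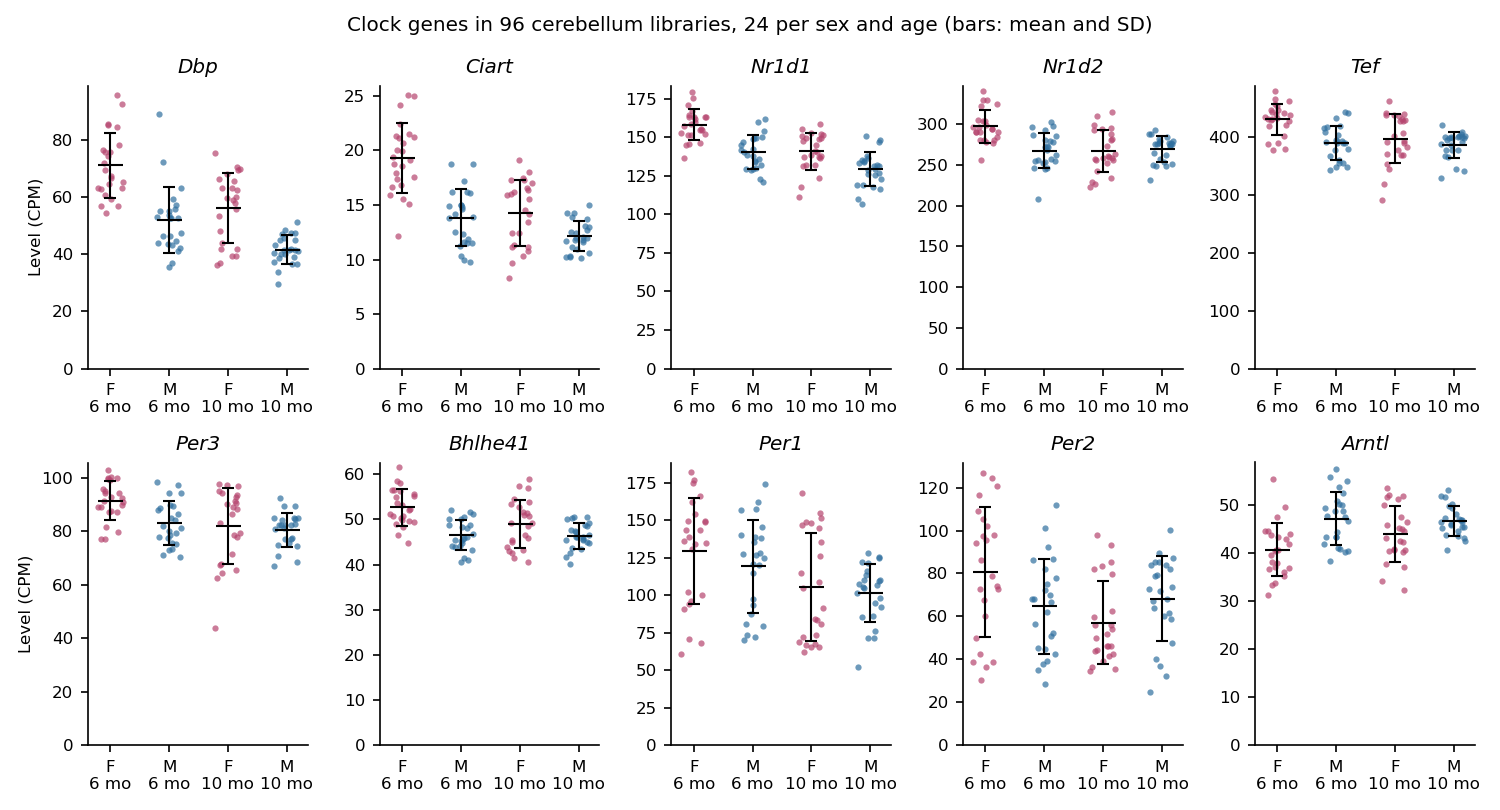
Levels of the 10 clock genes in CPM in each library, by sex and age (24 libraries per column), with bars for the mean and SD. At 6 months the points of Ciart and Dbp sit higher in females and those of Arntl lower, and at 10 months the 24 female libraries of Dbp and Ciart spread over a wider range than the male libraries.

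At 10 months 3 of 10 members were called between the sexes, all higher in females, where 5.87% of 17026 genes were called (3.46% higher). Dbp had a lowest, median and highest level of 36.5, 59.5 and 75.4 CPM in females and 29.6, 41.6 and 51.3 CPM in males, a log2 fold change of 0.40 ± 0.06, or 1.32-fold (q = 4.59e-05), with 20 of 24 female libraries above the male mean. Ciart had 8.28, 15 and 19.1 CPM in females and 10.1, 12 and 15 CPM in males, a log2 fold change of 0.21 ± 0.07 (q = 0.0471). Females thus held both the lowest and the highest Ciart values. Nr1d1 was higher by 0.12 ± 0.04 (q = 0.0376) in 21 of 24 female libraries. For Arntl the log2 fold change was -0.09 (q = 0.112), for Bhlhe41 0.07 (q = 0.144) and for Per2 -0.25 (q = 0.237).

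Of these calls only that of Dbp held in all 58 alternative fits. With the L number in the fit Dbp had a log2 fold change of 0.40 (q = 0.00122), and Ciart (q = 0.0793) and Nr1d1 (q = 0.0956) lost theirs. Ciart was called in 24 of the 58 fits and Nr1d1 in 49. The first principal component and the choroid plexus markers differed in mean between the sexes at this age, at 0.762 ± 1.18 (SD) in females and -0.379 ± 0.687 in males in units of scaled deviation, and at 2.73 and 1.68 log2 CPM. Of the choroid plexus markers 0 of 15 were called, while 3 of 5 meninges and 2 of 7 astrocyte markers were called higher and 1 of 7 granule neuron markers lower in females, and 1 of 6 endothelial markers in each direction. The part of the last 4 cell types in the sex differences was not tested. With the first component as a covariate Dbp stayed higher in females by 0.35 on the log2 scale (q = 0.00442).

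A test of whether the sex difference itself changed between 6 and 10 months, added after the values were seen, called no member, where 8 of 17449 genes (0.0458%) were called. At an unadjusted p under 0.05 it held 6 members, where 11.6% of genes were, with a change of -0.27 on the log2 scale for Ciart (q = 0.199) and the smallest q, 0.132, for Nr1d2. DESeq2 and limma called no member either, and with the first principal component as a covariate Ciart was called (-0.31 ± 0.09, q = 0.0341). In the mean of both ages, 6 members were called where 5.61% of genes were, with Dbp 0.43, Ciart 0.35, Nr1d1 0.15, Bhlhe41 0.13 and Tef 0.09 higher and Arntl lower at -0.15 on the log2 scale.

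**Figure D2:**
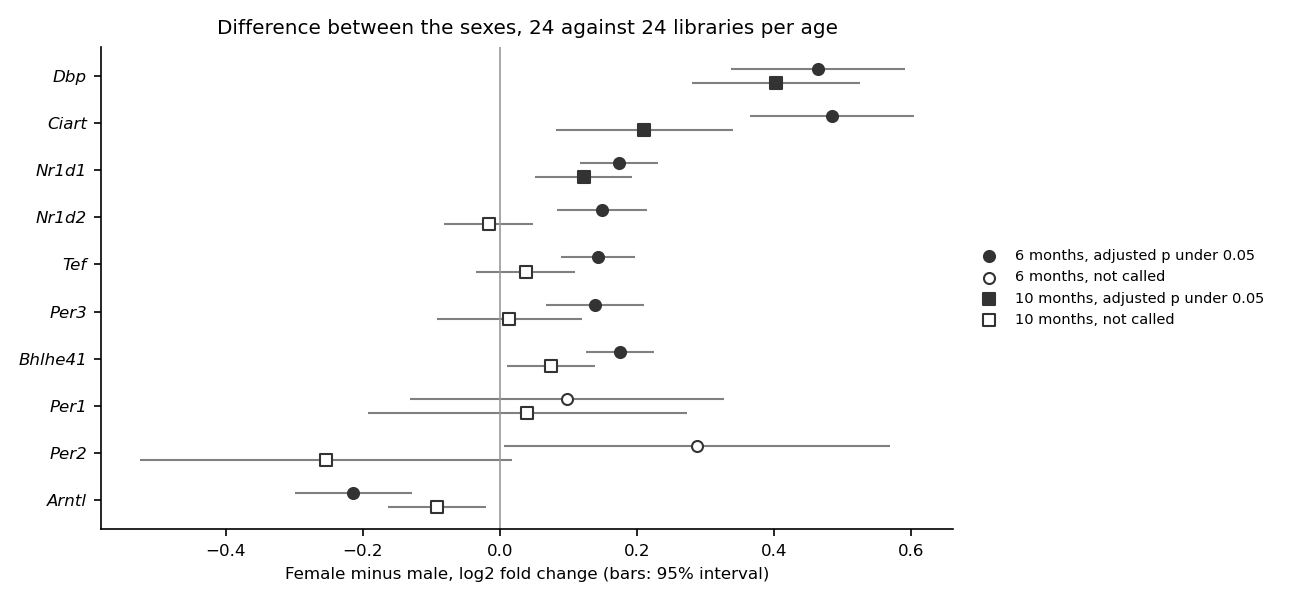
Female minus male log2 fold change of each clock gene at 6 and 10 months, with bars for the 95% interval, circles for 6 months, squares for 10 months and filled symbols where the gene was called. Ciart and Dbp lie farthest to the female side at 6 months (0.48 and 0.46), and Arntl lies on the male side (-0.21).

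At 10 months the females divided by cage, a split that was chosen after the values were seen and was not tested on its own. Dbp in the 4 females of each group was 48.1, 39.5, 37.0 and 36.5 CPM in Q20. The females that were wild type and lived with Q20 had 41.8, 44.1, 42.0 and 39.3 CPM. It was 70.8, 62.7, 69.7 and 59.8 CPM in Q50 females and 56.0, 69.8, 66.5 and 68.3 CPM in their wild-type cage mates. Q92 females had 63.3, 75.4, 63.3 and 65.7 CPM and Q140 females 53.6, 60.1, 59.2 and 58.0 CPM. All 8 females from Q20 cages, of either genotype, lay below all 16 other females.

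The males showed no such separation in Dbp. Dbp was 41.8, 41.1, 41.6 and 51.3 CPM in Q20 males. Their wild-type cage mates had 41.6, 47.2, 36.5 and 33.7 CPM. In Q50 males it was 47.4, 45.0, 39.1 and 38.9 CPM and in the wild types housed with them 45.8, 37.3, 40.2 and 48.6 CPM. Q92 males had 47.7, 43.2, 44.9 and 29.6 CPM and Q140 males 36.7, 40.3, 41.5 and 40.4 CPM. Males of all cages thus lay in the range of the females from Q20 cages or below it, apart from a single value of 51.3 CPM and a value of 48.6 CPM.

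Ciart followed the same division. Females had 12.5, 10.8, 9.70 and 8.28 CPM in Q20 and 11.2, 11.3, 11.1 and 10.4 CPM in their wild-type cage mates. The Q50 females had 14.2, 15.5, 18.0 and 12.4 CPM and the wild types housed with them 13.4, 17, 17.3 and 19.1 CPM. In Q92 females it was 16.2, 15.9, 17.4 and 14.6 CPM and in Q140 females 16, 16.4, 17.3 and 16.6 CPM. A single Q50 female overlapped the highest Q20 female. Males ranged from 10.1 to 15 CPM.

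As a female minus male difference on the log2 scale, Dbp was -0.13 in Q20, 0.08 in wild types housed with Q20, 0.63 in Q50, 0.60 in wild types housed with Q50, 0.71 in Q92 and 0.54 in Q140. For Ciart the same groups had -0.33, -0.12, 0.21, 0.53, 0.34 and 0.61. Arntl had 0.17 and 0.05 in the groups from Q20 cages and between -0.25 and -0.16 in the other 4. Per2 had -0.92 in Q20 and -0.60 in wild types housed with Q20, without overlap of the sexes, and between -0.48 and 0.49 in the others. Males had 80.2 ± 11.7 CPM (SD) of Per2 in Q20 cages and 62.0 ± 20.5 CPM in the other cages, with overlapping ranges. The difference varied between the 6 groups for Ciart (F = 10.7 on 5 degrees of freedom, q = 0.0230) and Dbp (F = 9.46, q = 0.0434), and these were the only genes called of 17026 (0.0117%). That test was added after the values were seen. At an unadjusted p under 0.05 it held 8 of the 10 members, Arntl among them (q = 0.482), and 9.88% of genes. Per2 was not among the 8 (q = 0.506).

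Both calls rested on single libraries. Without Q20 female 3, Q20 female 4 or Q20 male 4, q was 0.0700, 0.0530 and 0.0741 for Ciart and 0.145, 0.146 and 0.154 for Dbp. Dbp lost its call without any of 18 libraries. Beside those 3 they were Q20 female 2, Q50 females 1, 2 and 3, Q50 males 3 and 4, Q92 male 2, all 4 females and males 1 and 2 of the wild types housed with Q20, and female 4 and male 3 of those housed with Q50, with q from 0.0501 to 0.110. Ciart kept its call in 53 of 57 alternative fits and Dbp in 37, and with the first principal component as a covariate Dbp had q = 0.0896. With the replicate number as a block both calls were lost, at q = 0.0585 for Ciart and 0.137 for Dbp. With the L number in the fit q was 0.0212 and 0.00528, and with the choroid plexus covariate 0.0208 and 0.0223. At 6 months the same test called no member and no gene of 17120 (0%), with 3 members and 2.17% of genes at an unadjusted p under 0.05. There the difference was on the female side in all 6 groups for both genes, from 0.24 to 0.79 for Dbp and from 0.17 to 0.79 for Ciart. The smallest were in Q92 for Ciart and in wild types housed with Q20 for Dbp. At that age the males of the Q20 cages had the higher means. Dbp was 62.6 ± 12.6 CPM (SD, 52.8 to 89.1) in the 8 males from Q20 cages and 46.6 ± 6.42 CPM (35.6 to 57.2) in the 16 other males. Ciart was 16.1 ± 2.23 and 12.7 ± 2.02 CPM, the ranges of both genes overlapped, and this division was not tested on its own. The 6-month females had 75 ± 9.22 CPM of Dbp in Q20 cages and 69.4 ± 12.3 CPM in the others. Whether the sexes and cages differed in the order or time of tissue collection is not given in the sources used here.

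**Figure D3:**
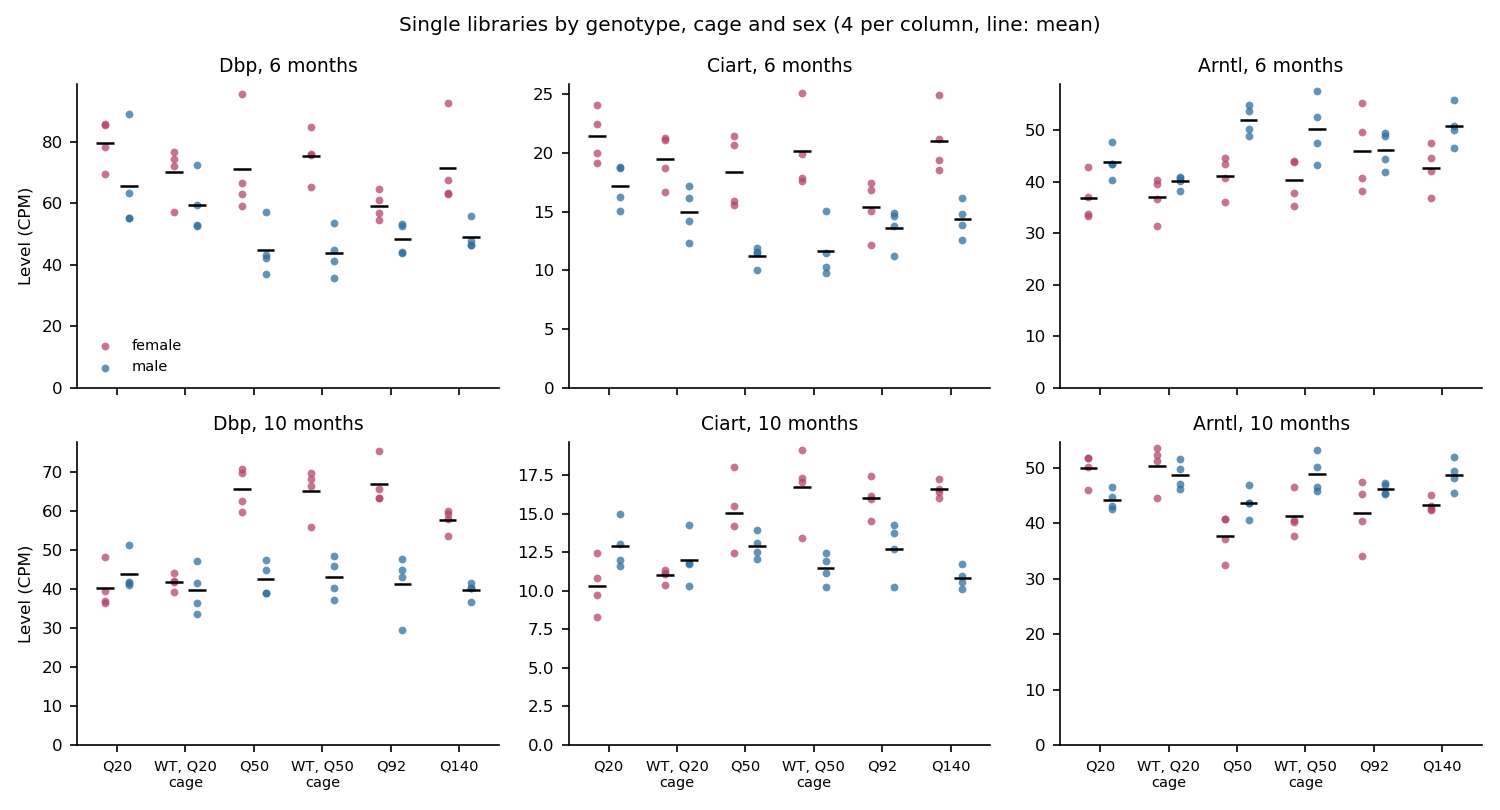
CPM of Dbp, Ciart and Arntl in each library by group, sex and age, with 4 libraries of each sex per group. At 10 months the females of Q20 and of the wild types housed with them sit among the males for Dbp (36.5 to 48.1 CPM), and the females of the other 4 groups range from 53.6 to 75.4 CPM.

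Between 6 and 10 months, 7 members fell and none rose, where 41.3% of 17384 genes were called (21% lower). The 48 libraries of each age also differ in the numbering of their libraries, so age and library series cannot be told apart. Dbp had a lowest, median and highest level of 35.6, 59.4 and 95.8 CPM at 6 months and 29.6, 45.0 and 75.4 CPM at 10 months, and fell by 0.32 ± 0.05 on the log2 scale (q = 4.89e-08). Ciart had 9.79, 16.2 and 25.1 CPM and then 8.28, 12.5 and 19.1 CPM, and fell by 0.31 ± 0.05 (q = 6.02e-07). The ranges of the ages overlapped for all members. These falls pool the cages and were larger in Q20 cages, a split that was not tested. Mean Dbp went from 74.97 to 41.04 CPM in females from Q20 cages and from 69.4 to 63.9 CPM in other females. In males it went from 62.6 to 41.9 CPM and from 46.6 to 41.7 CPM. Mean Ciart went from 20.5 to 10.7 CPM and from 18.7 to 16.1 CPM in these females. In males it went from 16.1 to 12.5 CPM and from 12.7 to 11.98 CPM.

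Smaller decreases were found for the period genes Per1, by 0.26 ± 0.08 (q = 0.0106), and Per3, by 0.10 ± 0.03 (q = 0.0141), and for the receptors Nr1d1, by 0.14 ± 0.02 (q = 4.25e-06), and Nr1d2, by 0.07 ± 0.03 (q = 0.0241). Tef fell by 0.06 ± 0.02 (q = 0.0384), a call that was lost with the choroid plexus score as a covariate (q = 0.0711). Of the 15 choroid plexus markers 8 were called higher at 10 months, with a median log2 fold change of 0.86 over the list. Bhlhe41 and Per2 had log2 fold changes of -0.05 (q = 0.0522) and -0.19 (q = 0.143). Arntl, the one member with a positive value, had 0.06 ± 0.03 (q = 0.108). Without the 10 libraries far from the rest of their age, Dbp fell by 0.25 and Ciart by 0.27. Means of Per3, Nr1d2 and Tef fell most in females from Q20 cages, from 94.4 to 69.99, 308.6 to 244.6 and 437.4 to 364.2 CPM. Per3 and Tef were not lower at 10 months in males from other cages, nor was Nr1d2 in males from Q20 cages. Means of Nr1d1 and Per1 were lower at 10 months in both sexes, in Q20 cages and in the others.

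The knock-in alleles were compared within each age, which asks whether the CAG length goes with the level of the clock genes. No member was called in any of these comparisons by edgeR. Those of Q140 and Q92 share the Q20 libraries as controls, and the comparison of Q20 with its wild types shares the wild types housed with Q20 with the comparison between cages. Each allele had its own cages, so in Q140 or Q92 against Q20 and in the CAG trend, allele and cage cannot be told apart. The share of all genes called was 0.164% for Q140 against Q20 at 6 months and 1.99% at 10 months, 0.0117% and 0.2% for Q92 against Q20, 0.0117% at both ages for Q20 against its wild types, and 0.0117% and 0.0529% for Q50 against its wild types. At an unadjusted p under 0.05, Q140 against Q20 held 2 and 0 members at 6 and 10 months, beside 23.2% and 13.8% of all genes. Q92 against Q20 held 6 and 3, beside 24.7% and 16.1%. Q20 against its wild types held 0 and 0, beside 6.43% and 8.82%, and Q50 against its wild types 1 and 1, beside 1.03% and 4.8%. The 2 members of Q140 at 6 months are thus near the share of all genes, and the 6 of Q92 at that age are above it. These counts were not tested, and members that move together are not independent. DESeq2 and limma called no member in these 8 comparisons. With the 16 wild types of an age as the control, no member was called either, where 0.234% and 0.452% of genes were for Q140 at 6 and 10 months and 0.035% and 0.0529% for Q92. In these, Arntl at 6 months had 0.17 ± 0.06 in Q140 and 0.15 ± 0.06 in Q92 (q = 0.316 and 0.741), and Dbp had -0.04 ± 0.10 and -0.18 ± 0.10.

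The widest separation was that of Q92 from Q20 at 6 months. Dbp was 54.7, 56.9, 61 and 64.7 CPM in Q92 females and 53.2, 52.8, 43.8 and 44.1 CPM in Q92 males. Q20 females had 69.7, 85.7, 78.3 and 85.4 CPM and Q20 males 55.2, 63.5, 55.4 and 89.1 CPM. All 8 Q92 libraries lay below the Q20 mean, with a log2 fold change of -0.42 ± 0.11 (unadjusted p = 0.00046, q = 0.165), and the groups overlapped. Ciart had -0.39 ± 0.11 and Per2 -0.66 ± 0.25, each with all 8 libraries below the Q20 mean, and Arntl had 0.21 ± 0.08 with 7 of 8 above it (q = 0.165 for each). Nr1d1 differed by 0.01 ± 0.05. Q20 female 3, female 4 and male 4, with 78.3, 85.4 and 89.1 CPM of Dbp, were among the 9 libraries that stood apart at this age, and no Q92 library was. Without the 9 libraries the log2 fold change was -0.33 ± 0.09 for Dbp, -0.41 ± 0.11 for Ciart and 0.22 ± 0.08 for Arntl (q = 0.403, 0.403 and 0.477). With the first principal component as a covariate it was -0.19 ± 0.08 for Dbp. Choroid plexus markers averaged 0.914 log2 CPM in Q92 and 2.46 in Q20, and their part was not tested beyond the fit with their mean as a covariate, in which Dbp had -0.41 ± 0.12 (q = 0.286).

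At 10 months the same comparison had the opposite sign, with 0.31 ± 0.11 for Dbp (q = 0.142) and 0.29 ± 0.11 for Ciart (q = 0.196). For Q140 against Q20 at 6 months Arntl had a log2 fold change of 0.23 ± 0.08 (q = 0.141) and Dbp -0.28 ± 0.11 (q = 0.175). Without Q140 female 4 the value of Arntl was 0.25 (q = 0.0449), and in the trend over CAG without that library Arntl and Dbp were called (0.18 and -0.27 per 100 CAG, q = 0.0346 and 0.0357). Choroid plexus markers averaged 0.105 log2 CPM in Q140 and 2.46 in Q20 at 6 months, with 0 of 15 called and 14 at an unadjusted p under 0.05, and with their mean as a covariate Arntl had 0.24 ± 0.08 (q = 0.431) and Dbp -0.25 ± 0.12 (q = 0.431). At 10 months Q140 against Q20 gave Ciart 0.21 ± 0.11 (q = 0.406) and Dbp 0.17 ± 0.11 (q = 0.509). These values pool the sexes, whose means differed in opposite directions. Mean log2 CPM of Dbp was 5.85 in Q140 and 5.32 in Q20 females, and 5.31 and 5.45 in males. For Ciart it was 4.05 and 3.36 in females, and 3.45 and 3.69 in males. A change of the Q140 difference between ages was not called for any member or gene (0% of 17384), with 3 members and 5.16% of genes at an unadjusted p under 0.05 and a change of 0.44 ± 0.16 for Dbp (q = 0.791).

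The trend over CAG length in the 32 knock-in libraries of an age called 0.406% of 16741 genes at 6 months and 1.16% of 16747 at 10 months, and no member. At an unadjusted p under 0.05 it held Arntl, with 0.15 ± 0.06 per 100 CAG (q = 0.136), and Dbp, with -0.20 ± 0.10 (q = 0.174), at 6 months and no member at 10 months. At that threshold it held 27.4% and 11.2% of all genes, so the members' counts did not exceed the share of all genes. DESeq2 and limma called none.

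The wild types of the Q50 and Q20 cages carry the same Htt alleles and differ by their cage mates. Apart from the L number, their library names hold a middle number in separate ranges for these cages at each age. The labels do not give its meaning, so cage and number series cannot be told apart. The comparison sets the allele differences beside a difference with no allele in it. At 6 months Bhlhe41 was -0.17 ± 0.04 in wild types housed with Q50 against those housed with Q20 on the log2 scale (q = 0.172, 8 of 8 libraries lower), a difference that DESeq2 called and that edgeR called without male 3 of the wild types housed with Q20. Arntl was higher by 0.23 ± 0.08 (q = 0.357). At 10 months Dbp was higher by 0.37 ± 0.11 (q = 0.135), Ciart by 0.26 ± 0.11 (q = 0.385) and Per3 by 0.24 ± 0.09 (q = 0.316), and Arntl was -0.14 ± 0.06 (q = 0.398). These values pool the sexes. In females, wild types housed with Q50 and Q20 had mean log2 CPM of 6.02 and 5.39 for Dbp and 4.06 and 3.47 for Ciart. In males they had 5.42 and 5.30 for Dbp and 3.52 and 3.59 for Ciart. No member was called by edgeR at either age, where 0.0935% and 0.2% of genes were. At 6 and 10 months 2 and 5 members had an unadjusted p under 0.05, beside 7.98% and 10.8% of genes. Both counts were above those shares and were not tested.

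**Figure D4:**
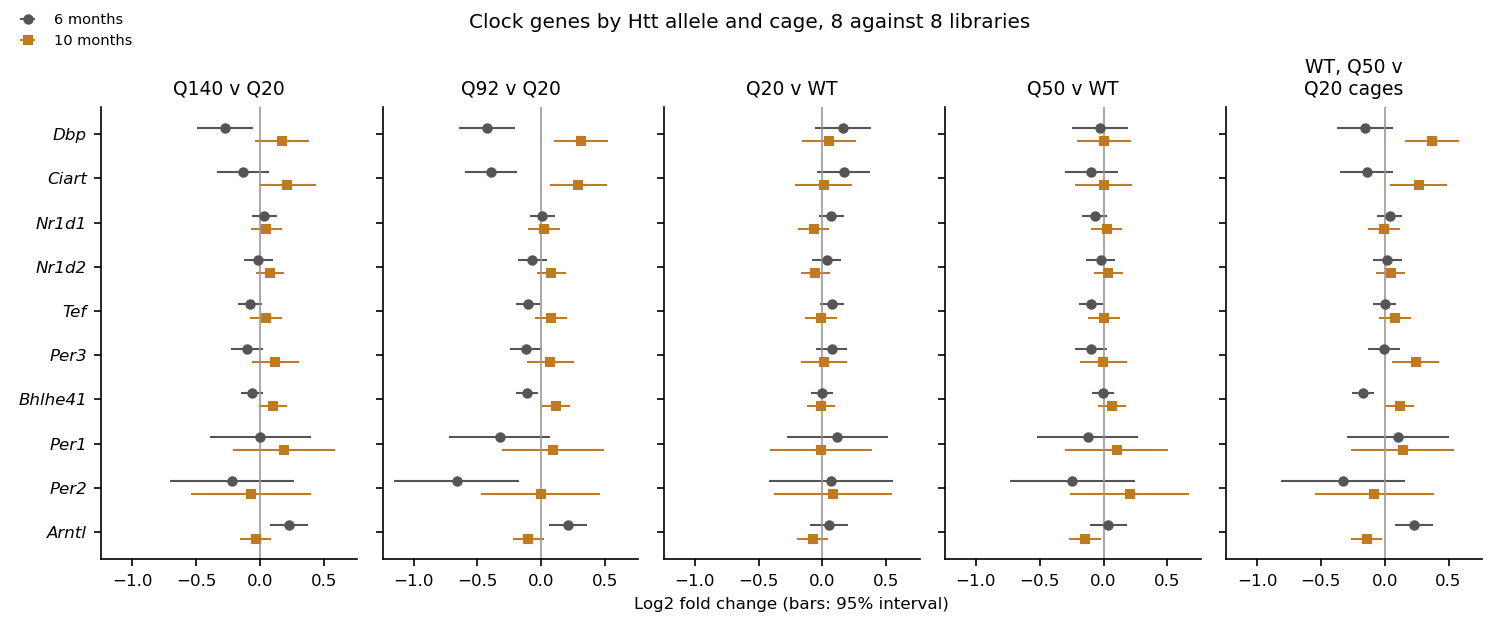
Log2 fold changes of the 10 clock genes, with bars for the 95% interval, in the comparisons of alleles and of wild types between cages, at 6 and 10 months, with 8 libraries per group. No point is a called difference, and the values of Dbp and Ciart in Q92 against Q20 are negative at 6 months and positive at 10 months. Each value pools females and males, and at 10 months Q92 males had lower means of both genes than Q20 males.

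Members differed in how far libraries of one group and sex spread. The SD of log2 CPM within genotype, cage, sex and age was 0.51 for Per2 and 0.43 for Per1, the period genes that are also known to respond to signals from outside the loop. It was 0.19 for Dbp, 0.18 for Ciart, 0.15 for Per3 and 0.13 for Arntl, and between 0.09 and 0.11 for Nr1d2, Nr1d1, Tef and Bhlhe41. The median over 16917 genes was 0.17. In females of Q140 at 10 months, for example, Per1 was 168.4, 155.1, 73.4 and 108.5 CPM while Tef varied far less. Mice, handling and time of day within a group cannot be told apart here.

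Relations between members were read from how they deviated together from the mean of their genotype, cage and sex. At 6 months, 4 of the 9 other members were related to Arntl, and all 4 were lower where Arntl was higher. That is the direction of the opposite phases known for them, but collection times are not given and phase was not tested. The share of all genes related to Arntl by this test was not computed. Over both ages together, Per1, Ciart, Per2 and Dbp ranked 1087, 1419, 1493 and 2465 of 13236 genes by size of r with Arntl. Many other genes were thus at least as closely related to it. Pearson's r with Arntl over 48 libraries was -0.56 for Ciart (Spearman's rho -0.53), -0.51 for Per1 (rho -0.46), -0.49 for Per2 (rho -0.44) and -0.44 for Dbp (rho -0.42). The permutation p-values, adjusted over 18 relations, were 0.00549, 0.00504, 0.0131 and 0.0131 for r and 0.018, 0.0189, 0.0382 and 0.0382 for rho. Without the 2 libraries farthest on Arntl r was -0.50, -0.52, -0.43 and -0.45. Bhlhe41 had r = -0.38 (adjusted p = 0.0659), and Nr1d1, which represses Arntl, had r = -0.00 (adjusted p = 0.997). Per3, Nr1d2 and Tef had r of -0.06, -0.18 and -0.22 and did not pass.

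The relation with Dbp depended on the processing and on the libraries far from the rest on the first principal component. On log2(FPKM + 0.1) its r was -0.31 (adjusted p = 0.116), and with the first component removed it was -0.32 (adjusted p = 0.0737). Without those 9 libraries r was -0.16 for Dbp and -0.35 for Ciart (adjusted p = 0.51 and 0.146), whereas it was -0.51 for Per1, -0.50 for Per2 and -0.50 for Bhlhe41 (adjusted p = 0.0144, 0.021 and 0.021). Dbp itself followed that component at 6 months, with r = 0.82 and rho = 0.72 (adjusted permutation p = 0.0006 and 0.00075 over 300 relations) and r = 0.79 without the 2 farthest libraries. The positive sign was set in advance, and Dbp is among the genes that make up the component. Per1 was negatively related to Arntl within each of the 6 groups, with r from -0.80 to -0.08. Ciart, Dbp and Per2 were each negative in 5 of the 6, with r from -0.85 to 0.60, -0.83 to 0.40 and -0.80 to 0.32. With the L number removed r was -0.56 for Ciart, -0.55 for Per1, -0.46 for Per2 and -0.48 for Dbp. Within females alone or males alone, with 24 libraries each, no relation passed the adjusted test by r, and r with Ciart was -0.60 and -0.53. By rho, Dbp passed in males (rho = -0.66, adjusted permutation p = 0.0333).

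At 10 months no relation with Arntl passed by r. Per1 had r = -0.31 and rho = -0.40, and Bhlhe41 had r = -0.30 and rho = -0.41, with an adjusted permutation p of 0.0463 for each rho. A single library, Q92 female 2, lay far from the rest. Without it r was -0.45 for Per1, -0.45 for Per2 and -0.57 for Bhlhe41 (adjusted p = 0.0232, 0.0232 and 0.00252), and 5 members were related to Arntl. Ciart and Dbp had r = -0.14 and -0.19 with all 48 libraries and -0.16 and -0.10 without it. With the L number removed from all 48, r was -0.15 for Per1, -0.10 for Per2, -0.22 for Bhlhe41 and 0.42 for Nr1d1. A difference in r between the ages was not tested.

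The 9 members other than Arntl moved mostly in the same direction. Of their 36 pairs, 24 were positively related at 6 months and 22 at 10 months, and 0 negatively, by a permutation test adjusted over the 90 pairs of all 10 members at both ages. The share of related pairs among other genes was not computed, so these counts do not set the members apart. Of the 9 pairs with Arntl, 5 were negatively related at 6 months, with Bhlhe41 the fifth (adjusted p = 0.0315 over 90 pairs), and 0 at 10 months. The closest pairs were Nr1d2 with Tef (r = 0.84), Per3 with Tef (0.77) and Per3 with Nr1d2 (0.72) at 6 months, and Per3 with Tef (0.88) and Nr1d2 with Per2 (0.83) at 10 months. Per1 and Per2 had r = 0.68 and 0.72 at the 2 ages, and Ciart and Dbp 0.64 and 0.71. The first principal component of the 10 members held 49.3% of their variance at 6 months and 44.3% at 10 months. A second component held 19.8% and 22.4%, on which Dbp and Ciart lay opposite to Arntl at 6 months and had the largest loadings at 10 months. Libraries that share depth and composition also share deviations, so these values describe the libraries. Cell type markers moved with several members at 6 months. The mean of 6 endothelial markers had r = -0.72 (rho = -0.77) with Nr1d2, -0.61 (rho = -0.61) with Per1 and -0.59 (rho = -0.63) with Tef, with adjusted permutation p of 0.0006, 0.0048 and 0.00337 for r. Without the 2 farthest libraries r was -0.72, -0.65 and -0.59. Arntl had r = 0.51 (rho = 0.49) with the granule neuron markers and 0.55 (rho = 0.50) with the Purkinje markers (adjusted p = 0.00433 and 0.0193), and 0.41 and 0.46 without the 2 farthest. At 10 months the endothelial mean had r = -0.61 with Nr1d2 (rho = -0.47, adjusted p = 0.0283 and 0.0412), and -0.36 without the 2 farthest libraries. The part of these cell types in the relations was not tested.

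**Figure D5:**
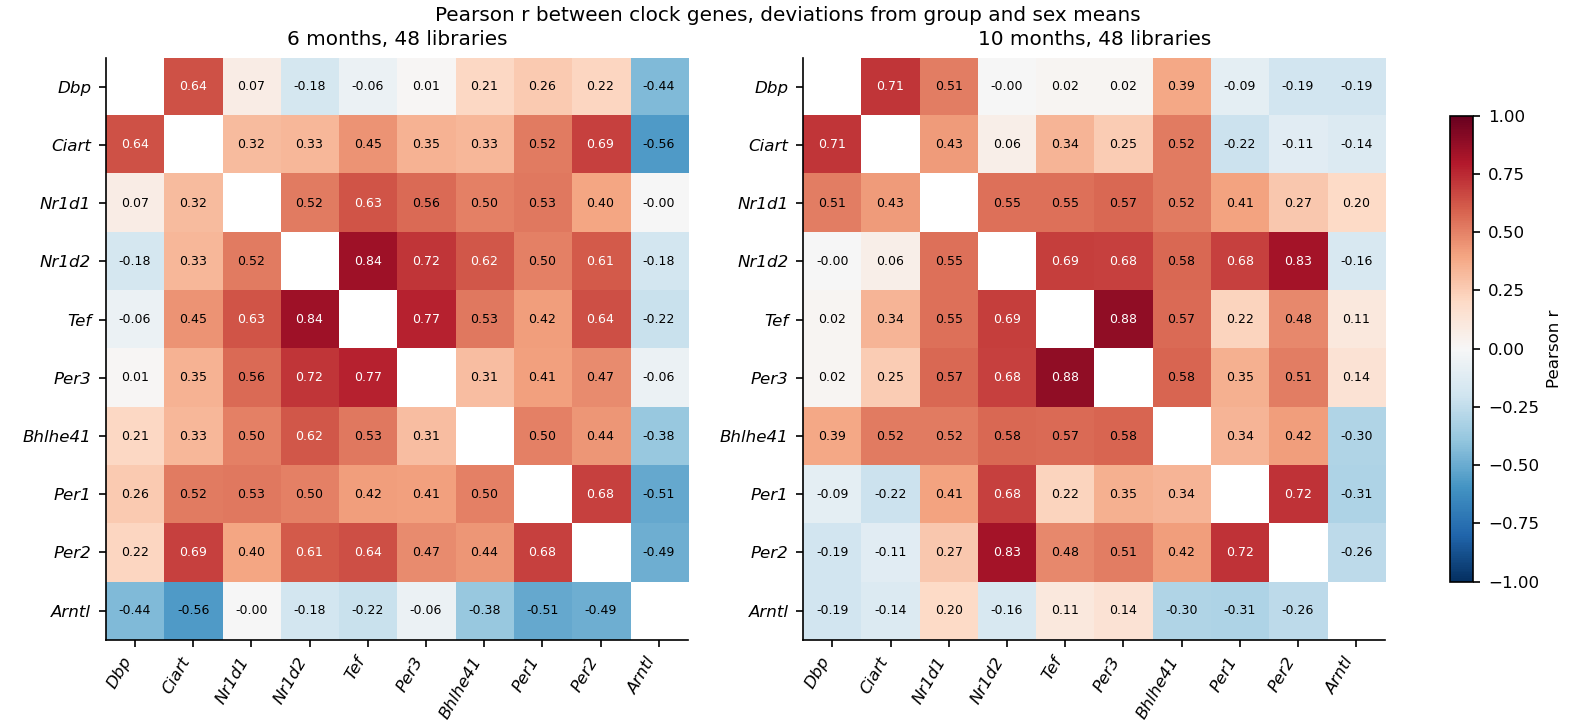
Pearson's r between each pair of clock genes over 48 libraries at each age, computed on deviations from the mean of genotype, cage and sex. The row of Arntl is negative with Ciart, Per1, Per2 and Dbp at 6 months (-0.56 to -0.44), and the highest positive value at that age is between Nr1d2 and Tef (0.84).

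Several members also went with genes that respond to glucocorticoids, and Per1 at 10 months with genes that respond to neuronal activity. The mean log2 CPM of 12 glucocorticoid-induced genes had r = 0.81 (rho = 0.83) with Per2 and 0.75 (rho = 0.75) with Per1 at 6 months, with an adjusted permutation p of 0.0006 for each r. Without the 2 farthest libraries r was 0.79 and 0.74. Ciart had r = 0.68 (rho = 0.66, adjusted p = 0.0006) and Arntl r = -0.63 (rho = -0.56, adjusted p = 0.0108) with the same list. At 10 months r was 0.65 with Per1 (adjusted p = 0.000857), 0.43 with Per2 (adjusted p = 0.059), -0.28 with Ciart (adjusted p = 0.24) and -0.28 with Arntl (adjusted p = 0.359). The mean of the immediate early genes had r = 0.72 with Per1 at 10 months (rho = 0.65, adjusted permutation p = 0.000857, and r = 0.65 without the 2 farthest libraries). At 6 months its r was 0.32 with Per1 (adjusted p = 0.234), and with Per2 it was -0.22 and 0.35 at the 2 ages (adjusted p = 0.456 and 0.163). At 10 months, when 5.87% of all genes were called between the sexes, 3 of 12 glucocorticoid-induced genes were higher in females, with Mt2 at 0.37 ± 0.06 (q = 5.39e-05), Mt1 at 0.20 ± 0.05 and Fkbp5 at 0.27 ± 0.08, and 3 of 10 immediate early genes tested were, with Junb at 0.49 ± 0.14. At 6 months no gene of either list was called. Their part in the sex differences of the clock genes was not tested.

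Some clock genes outside the 10 members were called between the sexes. Of 12 other clock regulators, Bhlhe40 (DEC1), the closest relative of Bhlhe41, was higher in females at both ages, by 0.15 ± 0.03 (q = 0.0064, 23 of 24 libraries) and 0.10 ± 0.03 (q = 0.0213, 22 of 24). Arntl2 was lower at 10 months, at -0.21 ± 0.07 (q = 0.0465). None of 8 clock protein modifiers was called between the sexes, and of 8 rhythmic output genes only Nampt was, at -0.09 ± 0.02 in females at 10 months (q = 0.0170). The counts at 10 months, 2 of 12, 0 of 8 and 1 of 8, stand beside 5.87% of all genes, and those at 6 months, 1 of 12, 0 of 8 and 0 of 8, beside 0.876%. The median log2 fold change of the 12 regulators was -0.03 at 6 months and 0.00 at 10 months, beside -0.00 and 0.00 over all genes.

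Between 6 and 10 months 41.3% of all genes were called, and the counts of these lists, 4 of 12, 4 of 8 and 5 of 8, stand beside that share. Of the 12 regulators 3 rose and 1 fell. Npas2, a relative of Clock, rose by 0.18 ± 0.04, Rora, which activates Arntl, by 0.17 ± 0.05 and Clock by 0.13 ± 0.05, and Timeless fell by 0.09 ± 0.04. Of the 8 modifiers, 4 rose, namely the ubiquitin ligase subunits Fbxl21 (0.32 ± 0.07), Btrc (0.07 ± 0.02) and Fbxw11 (0.08 ± 0.03) and the kinase Gsk3b (0.14 ± 0.04). Among the output genes Usp2, Tspan4 and Rbm3 fell by 0.18 ± 0.04, 0.17 ± 0.03 and 0.14 ± 0.03, and Wee1 and Hsp90aa1 rose by 0.17 ± 0.04 and 0.05 ± 0.02. No gene of these 3 lists was called in a comparison of alleles or cages.

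Of the genes most like Dbp over all 96 libraries, only the modifier Btrc is on a list of clock genes used here. Over 13237 genes, r of deviations from the mean of genotype, cage, sex and age was highest for Arf5 (0.77), Cox8a, Dexi, Dnajc4, Ap2s1, Rabac1, Rab3a and Usf2, and lowest for Btrc (-0.74), Nedd4, Rdx, Dhx9, Pds5b, Kidins220, Eif4g2 and Rab3c. With Dbp, r was 0.88 for Arf5 at 6 months and 0.51 at 10 months. Ciart, with r = 0.66, ranked 438 of 13236 by size. For Arntl the highest were Sirpa (0.73), Ppp4r4, Adamts18, Zfp521, Astn2, Asph, Gramd4 and Hrk, and the lowest were Rtkn (-0.69), Pmepa1, Ccdc184, Trp53inp2, Mettl7a1, Slc2a1, Arhgdig and Tcirg1. Sirpa had r = 0.72 at 6 months and 0.76 at 10 months. Among the members Per1 ranked highest for Arntl, at 1087 with r = -0.42. These correlations share library depth and composition and carry no test.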

How the data were processed

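Messenger RNA of mouse cerebellum was sequenced in 96 libraries, and RNA was extracted with the Qiagen miRNeasy kit, per the labels' protocols. The authors deposited a table of expected counts (estimates that need not be whole) per Ensembl gene, 81.6% of them whole, and a table of FPKM values of the same 39179 genes. The submitters' processing notes name CASAVA 1.8.2. How reads were aligned and quantified, on which build and gene models, and with or without strand is not given in the sources used here. Gene names and coordinates came from GENCODE M21 on GRCm38, which named 37607 identifiers, and promoter sequences from RefSeq (GRCm38.p6).

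The members, the gene lists and the tests were chosen with earlier results of these data known. After rounding, the expected counts entered two-sided quasi-likelihood F-tests of edgeR 4.0.16 (R 4.3.3; glmQLFit, then glmQLFTest) with TMM factors, a filterByExpr minimum of 10 counts and of 15 in total, and a prior count of 2 for log2 CPM, with groups of genotype and cage and with sex as terms. Fits held the 48 libraries of an age, the 32 knock-ins of an age for the trend per 100 CAG, or all 96. Genes were called at an adjusted p under 0.05. CPM values are TMM-scaled. Correlations used Python 3.11.15 with numpy 2.4.6, scipy 1.17.1 and pandas 2.3.3, with 100000 permutations within genotype, cage and sex, and figures matplotlib 3.10.9. Alternatives were DESeq2 1.42.0, limma 3.58.1 on log2(FPKM + 0.1) and log2(FPKM + 1), RLE factors, no filter, added covariates and each library left out. Fits were tested on simulated data. The genes named are the members, Thra, the called genes of each list, up to 6 a comparison by p, and the 8 genes most positively and the 8 most negatively correlated with Dbp and with Arntl. The highest correlation between any libraries was 0.994, so none were identical copies. That value does not show whether they came from different mice.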

Additional observations from a re-analysis of the deposited data

Results flagged for a closer look

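Ciart in wild types housed with Q20 at 10 months was 14.2 CPM in male 2 and between 10.3 and 11.8 CPM in the other 7 libraries, a gap of 0.584 of the group's log2 range. The same library had the highest Nr1d1 of its group, at 150.7 CPM against 129.1 to 137.6 CPM, a gap of 0.589. Per3 was 43.7 CPM in Q92 female 2 at 10 months, which stood apart on the first principal component, and 75 to 94.3 CPM in the others, a gap of 0.702. Arntl was 31.3 CPM in female 1 of the wild types housed with Q20 at 6 months and 36.8 to 41.0 CPM in the others, a gap of 0.593. These 4 gaps passed the 95% critical value of Dixon's test for groups of 8, of 120 groups tested, where chance gives about 1 in 20.

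The difference between females and males varied between the 6 groups at 10 months for Ciart (adjusted p = 0.0230) and Dbp (adjusted p = 0.0434), by edgeR's quasi-likelihood F-test over all genes. With the replicate number as a block the adjusted p was 0.0585 and 0.137.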

How the results depend on the processing

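No called member changed direction in any alternative. Between the sexes at 6 months, Dbp, Ciart, Bhlhe41, Nr1d1, Tef and Arntl were called in 58 of 58 alternative fits. Of the 3 members called at 10 months, 1 was left with the L number in the fit, with limma on log2(FPKM + 0.1) or log2(FPKM + 1), and with no filter on low counts. Leaving out single libraries gave 1 to 3. The count of 1 came without Q20 female 1, Q50 male 4, Q92 male 4, or female 2 or male 2 of the wild types housed with Q50. The change of the sex difference between ages called 1 member with the first principal component as a covariate. The variation of the sex difference between groups at 10 months, 2 members, was 1 with that covariate and 0 to 2 without single libraries. DESeq2 was not run for it. Wild types between cages at 6 months gave 1 with DESeq2 and 0 to 1 without single libraries, Q140 against Q20 at 6 months 0 to 1, and the trend at 6 months 0 to 2. For 10 against 6 months, the libraries left out in turn were the 32 of Q140 and Q20, with 7 to 8 members called.

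Of the 4 members related to Arntl at 6 months, 0 were left within females or males alone, and 9 were related without centring on group and sex. At 10 months, with 0 related, the counts were 7 without centring, 5 without the far library, 6 without the 2 libraries farthest on Arntl and 3 with the first component removed. The causes were not tested.

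Replicate numbers did not meet the rule for pairing. The median correlation of same-numbered libraries was 0.01 at 6 months and 0.03 at 10 months, and 14 and 21 of 48 libraries were closest to one of their own number, which 11 of the 47 other libraries of an age shared. This is a hint from the data, not the design. With the replicate number as a block, 7 members were called between the sexes at 6 months and 2 at 10 months, the variation between groups called 0, and 10 against 6 months called 7.

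Depth was even, but time of day, animal and collection order are not in the labels, 4 libraries stood for each sex of a group, and age cannot be told apart from library series.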

Other observations

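At 10 months some glucocorticoid-induced genes differed between the Q20 cages and other groups. Zbtb16, a transcription factor induced by glucocorticoids, was lower in wild types housed with Q50 than in wild types housed with Q20 (log2 fold change -1.94 ± 0.25, SE, 8 of 8 libraries), in Q140 than in Q20 (-1.50 ± 0.25, 8 of 8) and in Q92 than in Q20 (-1.07 ± 0.24, 8 of 8), with adjusted p of 1.05e-05, 0.000338 and 0.0406 by edgeR's quasi-likelihood F-test. Cdkn1a was lower in the comparison between cages (-0.80 ± 0.14, adjusted p = 0.00297), and Mt2, a metallothionein, was lower there (-0.46 ± 0.10) and in Q140 against Q20 (-0.45 ± 0.10). Of the 12 genes, 10 had an unadjusted p under 0.05 between the wild types of the Q50 and Q20 cages at 10 months, all 12 with lower values, and 1 had at 6 months, beside 10.8% and 7.98% of all genes. Of the 12, 3 were called, where 0.2% of genes were. The mean log2 CPM of the list overlapped between groups, at 4.76 to 5.21 in Q20, 4.62 to 5.35 in wild types housed with Q20, 4.43 to 5.19 in Q92, 4.38 to 4.79 in Q50, 4.22 to 4.88 in Q140 and 4.18 to 4.75 in wild types housed with Q50. Q50 was not compared with Q20. Q20 is the control of Q140 and Q92, so these comparisons share libraries. Whether this goes with the levels of Dbp and Ciart in the females of the Q20 cages was not tested.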
